A study of Homo sapiens with 9 samples.

Results

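Nuclear receptors are transcription factors that bind DNA and, in many cases, a small lipophilic ligand such as a steroid, a retinoid, a thyroid hormone, a bile acid or a fatty acid. Many of them bind a half-site, a short motif related to AGGTCA, as a monomer, a homodimer or a heterodimer with a retinoid X receptor (RXR), and recruit coactivators or corepressors to the genes they bind. In the liver they control bile acid, lipid, glucose and drug metabolism. The 43 genes described here are members of this family, chosen by name, and all 43 were found in the GENCODE annotation of GRCh37 among 20163 protein-coding genes.

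ATAC-seq, an assay that marks open DNA by transposase insertion, was performed on HepG2, a human hepatocellular carcinoma line that is the only cell model used. Cells received a non-targeting siRNA (NTG) or 1 of 2 siRNAs against INO80 (siINO80#1 and siINO80#2), the ATPase subunit of a chromatin remodelling complex, at 50 nM for 72 hours. Each of the 3 groups had 3 replicates, 9 samples in all, but 1 peak list per group was used. No difference between lists could therefore be set against the spread between replicates, no test was made, and the 95% Wilson intervals given below cover counting error only. The level of INO80 itself was not measured by this assay, and its start site held a peak in all 3 lists.

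The peak lists held 69730 intervals in NTG, 69333 in siINO80#1 and 53113 in siINO80#2, and read numbers recovered from the peak values were 1.43 and 1.44 times that of NTG for siINO80#1 and siINO80#2, respectively. List size and depth differ between the groups, and their part in any difference below cannot be told apart from that of the siRNA. Of 8 hepatocyte-type markers, 6 had a start-site peak in all 3 lists, ALB had one in NTG and siINO80#1 and AFP in NTG alone. Of the 8 blood, endothelial and fibroblast markers in the annotation, PTPRC (siINO80#1 alone) and COL3A1 (both siINO80 lists) had a start-site peak and the other 6 had none.

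Peaks were counted in a window of the gene body and 10 kb either side. A start-site peak had its summit within 1 kb of an annotated start of a transcript of the gene itself, and other peaks were intragenic or lay in the 10 kb flanks. The windows held 253 peaks in NTG, 228 in siINO80#1 and 170 in siINO80#2. Of these, 51, 54 and 47 were start-site peaks, 163, 136 and 94 were intragenic, and 39, 38 and 29 lay in the flanks. Merging the 3 lists gave 346 regions in the windows out of 111260 regions in all, with 60 at start sites, 234 intragenic and 52 in the flanks, and 6 regions lay in the windows of 2 receptor genes. The windows of all protein-coding genes held 43587 peaks in NTG, 42478 in siINO80#1 and 32922 in siINO80#2. Of these, 14301, 13964 and 11887 were start-site peaks, 23867, 23433 and 17152 were intragenic, and 5419, 5081 and 3883 lay in the flanks.

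The sequences of 4 strongly accessible regions are shown first, because they were open with each siRNA and carry letters to which later paragraphs refer. They are the summit and the nearest motif match with 25 bases either side, on the strand of the gene and in GRCh37, with TGAGTCA or its reverse complement TGACTCA (the AP-1 motif) or AGGTCA (the nuclear receptor half-site) in capitals. The first is intronic in NR1I2 (chr3:119514086-119514150), the second intronic in RARB (chr3:25634152-25634241) and the third intronic in THRB (chr3:24493212-24493305). The fourth lies just upstream of the start of NR0B2 (chr1:27240695-27240769), where TGACCT is the reverse complement of the half-site.
NR1I2: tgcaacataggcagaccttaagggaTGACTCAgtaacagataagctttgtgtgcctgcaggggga
RARB: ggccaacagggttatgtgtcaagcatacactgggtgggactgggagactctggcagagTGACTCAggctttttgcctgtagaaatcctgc
THRB: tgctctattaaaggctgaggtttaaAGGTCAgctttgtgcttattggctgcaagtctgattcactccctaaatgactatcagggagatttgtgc
NR0B2: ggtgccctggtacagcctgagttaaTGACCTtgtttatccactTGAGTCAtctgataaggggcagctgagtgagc

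The first comparison asked which receptor genes had an accessible start site with each siRNA. A start-site peak was found for 35 of the 43 genes in NTG (81.4%, 95% interval 67.4 to 90.3%), 35 in siINO80#1 (81.4%, 67.4 to 90.3%) and 31 in siINO80#2 (72.1%, 57.3 to 83.3%). Among all protein-coding genes the shares were 60.4%, 60.1% and 53.4%. All 3 lists held a start-site peak for 30 receptor genes, 69.8% against 50.8% of protein-coding genes, and no list held one for 6, against 35.1% of protein-coding genes. The receptor genes had a median of 8 annotated start sites and all protein-coding genes a median of 5. Over all protein-coding genes the share with a peak in NTG rose with this number, but among the receptor genes it stayed about level. With 1 to 3 start sites it was 5 of 6 receptor genes (83.3%, 43.7 to 97.0%) and 37.3% of all protein-coding genes, with 4 to 7 start sites 12 of 15 (80%, 54.8 to 93.0%) and 65.1%, and with 8 or more 18 of 22 (81.8%, 61.5 to 92.7%) and 79.8%.

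At the canonical start site alone, a setting chosen after seeing the data, the excess over other genes was smaller. A peak lay within 1 kb of it for 27 receptor genes in NTG (62.8%, 47.9 to 75.6%), 28 in siINO80#1 (65.1%, 50.2 to 77.6%) and 23 in siINO80#2 (53.5%, 38.9 to 67.5%). The shares of all protein-coding genes were 54.9%, 54.9% and 48.5%, inside each of these intervals. The strongest start-site peak lay far from the canonical start in several genes whose peaks were among the strongest. It was 117 kb downstream in PPARG, 132 kb upstream in HNF4G and 44.5 kb upstream in ESR2, each time at another annotated start of the gene in NTG.

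**Figure D1:**
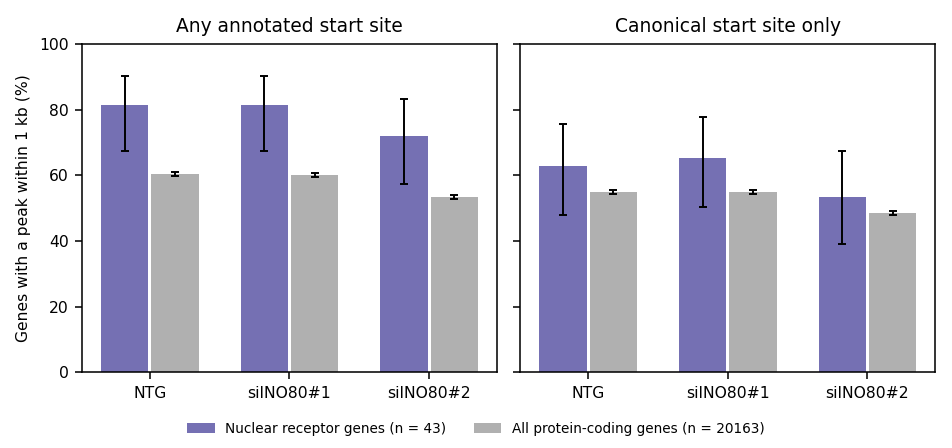
Share of genes with a peak within 1 kb of any annotated start site (left) or of the canonical start site (right), in percent, by peak list. Bars are shares and lines are 95% Wilson intervals; the receptor genes reach 81.4% in NTG at any start and 62.8% at the canonical start, against 60.4% and 54.9% of all protein-coding genes.

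Because fold enrichment, the ratio of reads at a summit to the local background, depends on the depth of a list, start-site peaks were ranked within their own list, from the 0th percentile for the weakest to the 100th for the strongest. The following paragraphs take the receptors by their roles and give fold enrichments in the order NTG, siINO80#1 and siINO80#2. The siINO80 lists share the NTG list as their reference, so that their differences from it are not independent.

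Among the lipid and xenobiotic sensors that pair with RXR, start-site peaks were present in all 3 lists for 5 of 7 genes. PPARG, the adipogenic receptor for fatty acids, had fold enrichments of 9.87, 10.1 and 8.78 and lay at or above the 97th percentile of each list. PPARD, a fatty acid receptor active in many tissues, had 5.03, 4.42 and 4.29. NR1I2 (PXR), the receptor that induces drug-metabolising enzymes, had 5.49, 4.38 and 4.12 at its canonical start, and its percentile was 80.8, 72.3 and 70.7. These peaks of PPARD and NR1I2 were present with every siRNA and stood lower in both siINO80 lists than in NTG. The percentile of PPARD was 76.8, 73.2 and 73.1. Over all protein-coding genes the median difference from NTG was -0.317 percentile points in siINO80#1 and -3.81 in siINO80#2.

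NR1I3 (CAR), the other hepatic drug sensor, had a fold enrichment of 4.42 with 26 reads at the summit in NTG and 3.14 with 21 reads in siINO80#1, and no start-site peak in siINO80#2. NR1H2 (LXR beta), an oxysterol receptor, had a start-site peak in all 3 lists, but none within 1 kb of its canonical start. NR1H3 (LXR alpha) had 4.40, 2.79 and 2.94 at a start shared with ACP2. A region near a start of MADD held a peak in all 3 lists with 4.38, 3.66 and 3.81, and its summit in siINO80#2 lay 973 bp from a start of NR1H3 and counted as its strongest there. At starts of NR1H3 alone, the canonical one had 3.02 in NTG, none in siINO80#1 and 2.58 in siINO80#2, and another had 2.58 in NTG alone. PPARA, the hepatic fatty acid receptor and target of fibrates, had no start-site peak in any list.

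The RXR genes, whose products are the shared partners of these receptors, had no start-site peak in all 3 lists. RXRA, the main RXR of liver, had none in any list. RXRB had a fold enrichment of 2.22 in NTG (percentile 1.44) and 2.09 in siINO80#1 (percentile 1.74) at a start shared with SLC39A7, one of 2.54 in NTG alone (percentile 9.63) at a start 2.9 kb away, and none in siINO80#2. RXRG had 2.55 in NTG, with 13 reads at the summit over a background of 4.49, and none in either siINO80 list. These were among the weakest start-site peaks of the family, and 13 reads was the lowest count of any of its start-site regions in NTG.

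Of the 6 hormone and vitamin receptors that also pair with RXR, 4 had a start-site peak in all 3 lists. THRB, a thyroid hormone receptor, had 6.25, 5.42 and 4.51, and RARB, a retinoic acid receptor, 5.44, 5.44 and 4.04. RARA had 3.02, 1.96 and 1.98 and stood at percentiles of 35.1, 0.526 and 0.603. These RARA peaks lay 8.87 to 9 kb downstream of its canonical start, where no list held a peak. RARG had 2.59 in NTG and 3.11 in siINO80#1 in 1 region, at percentiles of 11.8 and 49.2. Its 1.98 in siINO80#2 came from a separate region held by that list alone. These RARG peaks lay 11.1 to 11.7 kb downstream of the canonical start. VDR, the vitamin D receptor, had a start-site peak of 2.55 in siINO80#1 alone, and THRA had none in any list.

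All 5 steroid receptor genes had a start-site peak in NTG and siINO80#1. NR3C2, the mineralocorticoid receptor, had the highest start-site fold enrichment of the family in each list, 11.2, 11.4 and 12.7, with 146, 196 and 195 reads at the summit. NR3C1, the glucocorticoid receptor, had 4.63, 3.79 and 3.75 in 1 region, with the summit of each siINO80 list 1.19 kb from that of NTG. ESR2 had 8.06, 9.65 and 5.32. ESR1, an oestrogen receptor, had 3.80, 2.15 and 2.35 at one start and 3.55, 3.96 and 5.06 at another 4.11 kb upstream, so that its strongest peak lay at the first in NTG and at the other in both siINO80 lists. PGR, the progesterone receptor, had 3.05 in NTG and 2.72 in siINO80#1 at 1 start and 2.85 in siINO80#1 alone at another, with summits 3.17 kb apart, and no start-site peak in siINO80#2.

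The oestrogen-related receptors and the clock-linked REV-ERB and ROR genes differed in strength. ESRRA, a regulator of mitochondrial genes, had 2.09 in NTG and 2.92 in siINO80#1 in 1 region. Its 2.08 in siINO80#2 came from a separate peak that overlapped neither of these. ESRRG had 3.97 in NTG and 3.25 in siINO80#1 at 1 start. The strongest ESRRG peak in siINO80#2, 2.53, lay 11.7 kb away at a start that had 3.11 in NTG and none in siINO80#1. ESRRB, known from pluripotent cells, had no start-site peak. NR1D1 (REV-ERB alpha), a circadian repressor, had 3.49, 2.55 and 2.67 with 57, 56 and 54 reads, over backgrounds of 15.6, 21.3 and 19.6, and its percentile was 52.0, 21.8 and 26.4. Its paralogue NR1D2 had 6.29, 6.57 and 6.25 at a start shared with NKIRAS1. RORA had 4.19, 3.82 and 3.0, and RORB 2.85, 3.58 and 3.07. The RORA peaks lay 637 kb downstream of its canonical start, where no list held a peak. Those of NTG and siINO80#2 did not overlap each other, and both lay within the wider interval of siINO80#1.

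The 3 NR4A genes, immediate early genes induced by many stimuli, had a start-site peak in all 3 lists. NR4A2 had the highest values, 6.07, 8.04 and 5.77, at a start 9.85 kb upstream of the canonical one in NTG. NR4A3 had 4.71, 4.11 and 4.74, and NR4A1 3.11, 2.91 and 2.99. The percentiles of NR4A1 were 37.6, 39.5 and 42.2. None of these genes lost its peak or moved by 20 percentile points in either siINO80 list.

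Among the hepatic orphan receptors, NR0B2 (SHP), the corepressor induced by bile acids, had 7.16, 4.88 and 4.27 with 79, 53 and 46 reads. Its background was 10.2, 10.1 and 10.0, and its percentile 90.6, 78.2 and 72.9. NR5A2 (LRH-1), an activator of bile acid synthesis genes, had 5.62, 3.76 and 4.67. HNF4G had 9.22, 8.34 and 8.07, and NR5A1 (SF-1), the steroidogenic factor of adrenal and gonad, had 2.14 in NTG and 2.43 in siINO80#2 and none in siINO80#1.

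The COUP-TF genes NR2F1 and NR2F2 had peaks in all 3 lists. NR2F1 had 7.84, 8.0 and 6.18, and NR2F2 had 3.49, 4.28 and 4.38 and stood at percentiles of 52.1, 71.3 and 73.9. NR2F6 had a peak of 2.14 in siINO80#1 alone, and NR2E1 (TLX) and NR2E3 (PNR), receptors of brain and retina, had none. The testicular receptors and the germ cell factor each kept a strong peak, with 7.05, 6.15 and 5.72 for NR2C1, 5.67, 5.85 and 6.99 for NR2C2 and 5.16, 4.89 and 5.11 for NR6A1.

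**Figure D2:**
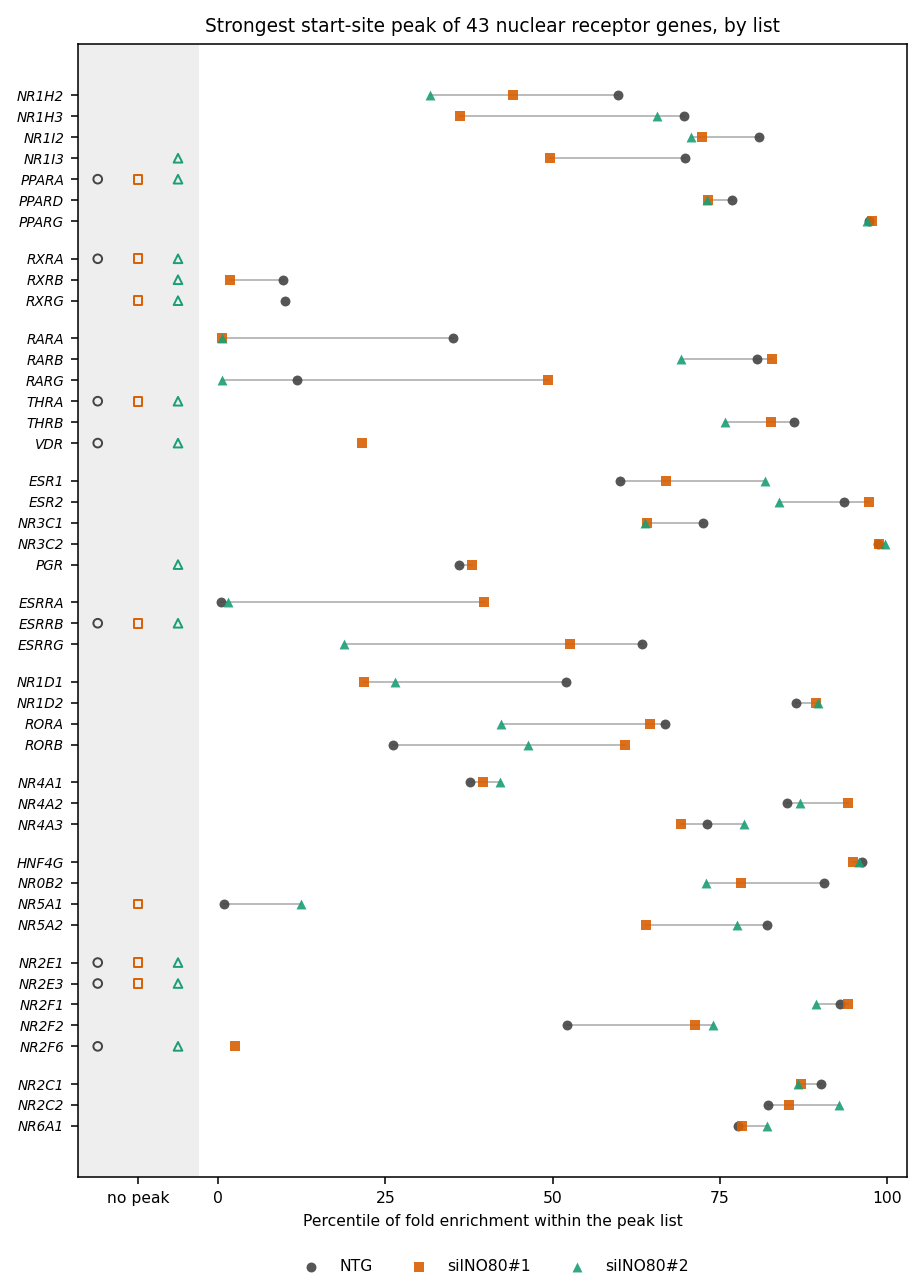
Percentile of fold enrichment, within its own peak list, of the strongest start-site peak of each of the 43 receptor genes, ordered by role. Filled symbols are peaks of NTG, siINO80#1 and siINO80#2, open symbols in the grey band mark lists without a start-site peak, and lines join the lowest and highest values of a gene; NR3C2 lies at 98.6, 98.8 and 99.7, and RXRA and PPARA have no peak.

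Of the 35 receptor genes with a start-site peak in NTG, 2 had none in siINO80#1 (RXRG and NR5A1), against 6.69% of protein-coding genes, and 4 had none in siINO80#2 (NR1I3, RXRB, RXRG and PGR), against 14.6%. With a −log10 q of at least 5, RXRG, NR5A1, RXRB and PGR had no start-site peak in any list, NTG included. No receptor gene had a start-site peak that both siINO80 lists held and NTG lacked, and 1.02% of protein-coding genes had one. Of 33 genes with a peak in NTG and siINO80#1, 4 stood at least 20 percentile points lower in siINO80#1 (8.02% of protein-coding genes) and 3 higher (6.04%). Of 31 genes with a peak in NTG and siINO80#2, 5 stood at least 20 points lower in siINO80#2 (18.6% of protein-coding genes) and 3 higher (2.57%). In ESRRG, which stood lower there, and ESR1, which stood higher, the strongest peaks compared lay at different starts. The median shift was -1.35 points for siINO80#1 and -3.64 points for siINO80#2, beside -0.317 and -3.81 over all protein-coding genes.

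Start-site regions were also counted one by one, since several genes have more than one accessible start. Of the 60 start-site regions, 34 held a peak in all 3 lists and 26 did not, and the latter belonged to 17 genes. By list, 6 regions were in NTG alone, 7 in siINO80#1 alone, 2 in siINO80#2 alone, 8 in NTG and siINO80#1, 3 in NTG and siINO80#2 and 0 in the siINO80 pair. Those of all 3 lists made up 56.7% (44.1 to 68.4%), NTG alone 10% (4.66 to 20.2%) and siINO80#1 alone 11.7% (5.77 to 22.2%), and the start-site regions of all protein-coding genes fell into these classes in 60.4%, 12.3% and 10.2% of cases and into the siINO80 pair in 2.48%. Those in NTG alone lay at RXRG, NR5A2, NR1H3, NR2F2, NR3C2 and RXRB. Those in siINO80#1 alone lay at NR5A2, ESRRG, PGR, VDR, RORA, NR2F6 and RORB, and those in siINO80#2 alone at RARG and PPARG. ESRRG had 3 further regions that were absent from 1 list, and the others of this kind lay at NR1I3, NR1H3, ESRRA, PGR, RARG, NR2F2, RXRB and NR5A1.

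The base composition at the canonical start, a property examined after seeing the data, differed among the genes without a peak. The 501 bp around it held 85.4% G and C in PPARA, 84.0% in RXRA and 80.2% in THRA, and 84.4% in NR2F6, which had a peak in siINO80#1 alone. Of the 8 receptor genes with 75% or more, 4 had a start-site peak in NTG, 5 in siINO80#1 and 4 in siINO80#2, and the shares of all protein-coding genes of this composition were 62.4%, 63.2% and 49.8%. All 9 receptor genes below 55% had a peak in NTG, whereas 20.8% of protein-coding genes below 45% and 39.3% of those from 45 to 55% had one. These peaks could lie at any annotated start, but the base composition was taken at the canonical one. In NTG the strongest peak lay 132 kb from the canonical start in HNF4G, 117 kb in PPARG, 367 kb in ESRRG and 2.7 kb in PGR. In the others of these 9 genes it lay within 1 kb. The other genes without a peak, NR2E1, NR2E3 and ESRRB, held 58.7%, 60.1% and 62.1%.
The 80 bases before the canonical start of RXRA (chr9:137218221-137218300) and ESRRB (chr14:76842400-76842479) are shown, with CG in capitals, to set a start without a peak that is rich in CG beside one that has none. They hold 22 and 0 CG, respectively.
RXRA: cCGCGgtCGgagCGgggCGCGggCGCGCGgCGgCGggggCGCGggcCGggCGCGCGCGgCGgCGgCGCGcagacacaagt
ESRRB: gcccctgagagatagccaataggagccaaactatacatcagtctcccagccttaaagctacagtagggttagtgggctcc

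The next comparison concerned peaks away from start sites, in gene bodies and flanks. Of 286 such regions, 77 (26.9%, 22.1 to 32.3%) held a peak in all 3 lists, 81 (28.3%, 23.4 to 33.8%) in NTG alone and 12 (4.20%, 2.42 to 7.19%) in the siINO80 pair. In the windows of all protein-coding genes these classes made up 22.4%, 26.6% and 5.48% of regions. Regions of siINO80#2 alone numbered 24 (8.39%, 5.70 to 12.2%) against 5796 of the 48109 regions of all protein-coding genes, a share within this interval. Of the 202 NTG peaks away from start sites, 92 had no match in siINO80#1 (48.8% of such peaks of all protein-coding genes) and 110 had none in siINO80#2 (57.7% of such peaks).

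**Figure D3:**
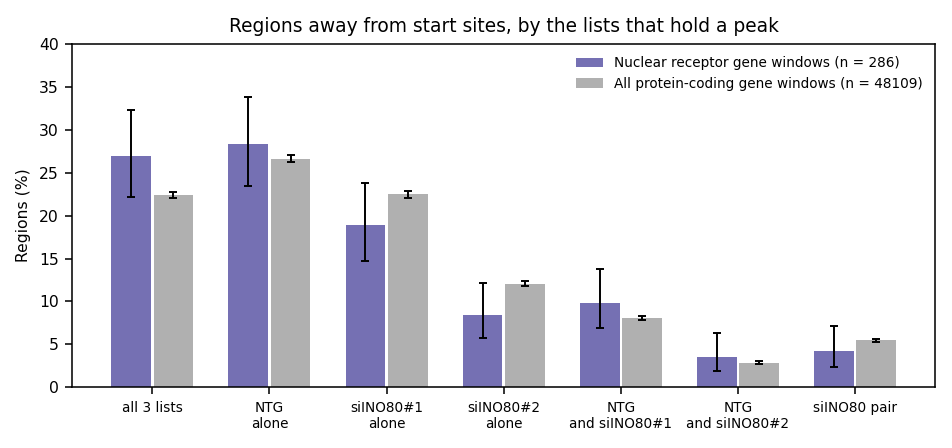
Share of regions away from start sites, in percent, by the lists that hold a peak in them, for the windows of the receptor genes and of all protein-coding genes. Lines are 95% Wilson intervals; regions in all 3 lists make up 26.9% and 22.4%, and those of the siINO80 pair 4.20% and 5.48%.

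Whether an NTG peak had a match varied with its strength. From the 0th to the 25th percentile of NTG, 15 of 53 peaks away from start sites (28.3%) were matched in siINO80#1 and 10 (18.9%) in siINO80#2, whereas from the 75th to the 100th 34 of 34 and 29 of 34 (85.3%) were. In all protein-coding gene windows, the shares of this strongest set were 92.9% and 85.8%. Regions of NTG alone had a median percentile of 32.9 in NTG, and those of all 3 lists one of 69.5. Regions of siINO80#1 alone and siINO80#2 alone had medians of 29.1 and 23.95 in their own lists, so that regions held by 1 list lay mostly below the middle of it. Away from start sites the lowest number of reads at a summit was 12 in NTG, 14 in siINO80#1 and 15 in siINO80#2.

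**Figure D4:**
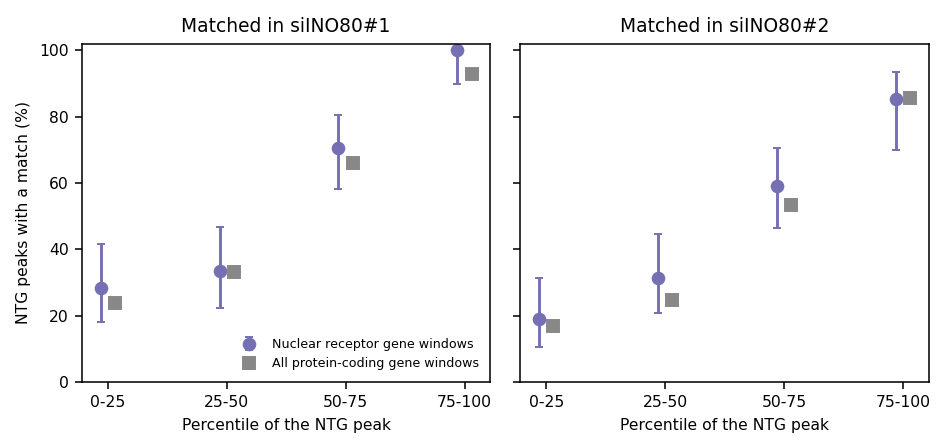
Share of NTG peaks away from start sites with an overlapping peak in siINO80#1 (left) and siINO80#2 (right), in percent, in 4 steps of the NTG percentile of fold enrichment. Points are shares and lines are 95% Wilson intervals; among receptor genes the share rises from 28.3% to 100% in siINO80#1 and from 18.9% to 85.3% in siINO80#2.

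The regions were spread unevenly over the family. ESR1 had 51 regions, RARB 48, ESRRG 32, THRB 21, RORA 16 and NR3C2 15, and the 9 genes with 10 or more regions held 223 regions, with a shared region counted for each gene. These genes have long windows, from 170 kb in NR5A2 to 930 kb in RARB. Per 100 kb the family had a median of 5.27 regions beside 4.12 for all protein-coding genes, and ESR1 reached 10.3 and RARB 5.16. In windows of 200 kb or more, a limit chosen after seeing the data, the medians were 5.00 over 10 receptor genes and 2.99 over 1733 protein-coding genes. ESR1 lies on chromosome 6, which held 42.0 NTG peaks per Mb, the highest density after chromosome 2 (47.7) among chromosomes with receptor genes; the part of chromosome copy number in its count was not tested.

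**Figure D5:**
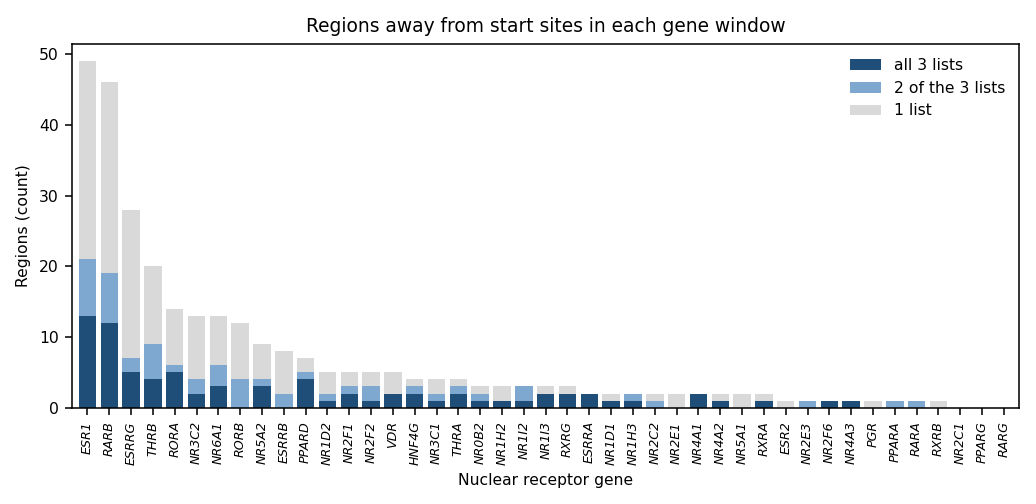
Number of regions away from start sites in the window of each receptor gene, split by whether 3, 2 or 1 of the peak lists held a peak in the region. ESR1 and RARB have 49 and 46 such regions, and NR2C1, PPARG and RARG have none.

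Over all receptor genes, 159 of the 286 regions away from start sites (55.6%, 49.8 to 61.2%) were seen in a single list, and 61.2% of such regions of all protein-coding genes were. Of the 49 ESR1 regions away from start sites, 13 held a peak in all 3 lists and 28 in 1 list. Of the 46 of RARB, 12 and 27 did so, and of the 28 of ESRRG, 5 and 21. PPARD differed, with 4 of 7 in all 3 lists. RORB and ESRRB had none of 12 and none of 8 in all 3 lists. In all, 29 receptor genes had at least 1 region away from start sites in all 3 lists. The share of all protein-coding genes with such a region was not computed, so this count has no background beside it.

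Away from start sites, the strongest regions held by all 3 lists, ranked by their lowest percentile, were intronic. An intronic region of THRB, 43.1 kb downstream of the canonical start (chr3:24491758-24493915), had fold enrichments of 11.2, 12.7 and 10.2. The half-site shown above lies 41 bp from its strongest summit. A RARB intron (chr3:25633669-25634503) had 10.9, 9.68 and 10.5, an ESR1 intron (chr6:151989688-151990477) 10.2, 9.67 and 9.05, and an NR1I2 intron, 13.2 kb downstream of the start (chr3:119513720-119515257), 10.2, 11.1 and 7.51. The last 3 each held an AP-1 match. A second THRB intron (chr3:24406500-24407052) followed with 8.17, 7.84 and 10.3.

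The strongest regions of NTG alone were weaker and held no AP-1 match. They were intronic in ESR1, with a fold enrichment of 4.39, in NR5A2, with 4.36, 4.15 and 4.01 at 3 separate places, and in VDR, with 3.95. Their reads at the summit ran from 19 to 35. The 3 NR5A2 regions lay 63.0, 88.7 and 100.5 kb downstream of the canonical start.

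Both siINO80 lists held 12 regions away from start sites that NTG lacked, in the windows of 10 receptor genes. The strongest was intronic in HNF4G, with fold enrichments of 5.36 in siINO80#1 and 6.47 in siINO80#2 and 32 and 40 reads. It was followed by an intronic region of THRB with 4.15 and 3.95, one in the flank of NR2E3 with 4.06 and 3.63, an intronic one of NR6A1 with 3.41 and 4.10 and a second of THRB with 4.06 and 3.16. An ESR1 intron was strong in 1 list, with 6.45 and 51 reads in siINO80#1 and 2.75 and 24 reads in siINO80#2. The median percentile of the 12 regions was 61.8 in siINO80#1 and 49.2 in siINO80#2, beside 50.3 and 43.6 for such regions of all protein-coding genes.

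Of these 12 regions, 5 held an AP-1 match in the 200 bp around the strongest summit (41.7%, 19.3 to 68.0%), and 32.9% of the 2635 such regions of all protein-coding genes held one. Among receptor gene regions of NTG alone, 5 of 81 (6.17%) did so, and of all 3 lists, 14 of 77 (18.2%). The corresponding shares of all protein-coding genes were 5.49% and 22.9%. The regions of a single siINO80 list differed, with a match in 4 of 54 of siINO80#1 alone (7.41%, 2.92 to 17.55%) and 6 of 24 of siINO80#2 alone (25%, 12 to 44.9%). Over all protein-coding genes these shares were 11.15% and 11.11%. AP-1 is a dimer of the Jun, Fos and ATF families that binds enhancers in many cell types. The 5 stretches are given below because they are the receptor gene regions in which this motif and a peak in both siINO80 lists coincided, with the match in capitals and on the plus strand of GRCh37. They lie intronic in NR5A2 (chr1:200119923-200120056) and ESR1 (chr6:152375768-152375837) and in the flanks of NR2E3 (chr15:72083733-72083801), NR1D2 (chr3:24023541-24023624) and RARB (chr3:24720108-24720179).
NR5A2: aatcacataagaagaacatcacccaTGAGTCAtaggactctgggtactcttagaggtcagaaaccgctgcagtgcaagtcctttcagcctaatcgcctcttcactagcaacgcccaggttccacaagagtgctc
ESR1: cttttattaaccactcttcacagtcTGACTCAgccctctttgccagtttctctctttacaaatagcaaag
NR2E3: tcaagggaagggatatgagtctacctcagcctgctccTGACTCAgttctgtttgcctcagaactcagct
NR1D2: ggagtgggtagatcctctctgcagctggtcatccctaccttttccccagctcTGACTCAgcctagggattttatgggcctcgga
RARB: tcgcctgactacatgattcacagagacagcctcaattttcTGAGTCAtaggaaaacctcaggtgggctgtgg

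The match lay from 15 to 80 bp from the summit in these 5 regions, the farthest being that of NR5A2, which also holds a half-site between match and summit. The receptor half-site AGGTCA, searched on both strands, was found in 51 of the 286 regions (17.8%, 13.8 to 22.7%) and in 15.8% of regions of all protein-coding genes. By class it was found in 17 of 77 regions of all 3 lists (22.1%) and in 7 of 81 of NTG alone (8.64%, 4.25 to 16.8%), beside 19.2% and 14.4% over all protein-coding genes. It was found in 14 of 54 regions of siINO80#1 alone (25.9%, 16.1 to 38.9%) and in 3 of 24 of siINO80#2 alone (4.34 to 31%), beside 14.9% and 12.7%. The direct repeat DR1, that is AGGTCA repeated in the same orientation after 1 base, and the cAMP response element TGACGTCA were found in 0 of 286. Over all protein-coding genes they were found in 0.0104% and 0.141% of regions, both inside the interval for 0 of 286 (0 to 1.3%). The FOXA motif TGTTTAC was found in 14 (4.90%), beside 5.44% over all protein-coding genes. Of the 34 start-site regions in all 3 lists, 4 held an AP-1 match (4.67 to 26.6%), beside 4.85% of such regions of all protein-coding genes. They lay at NR0B2, NR5A2, RARB and ESR1, and those of NR0B2, shown above, and RARB also held a half-site.

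Other genes of the pathway were read from a fixed list of 19 coregulators. Of these, 14 had a start-site peak in all 3 lists, among them the corepressors NCOR1 (6.45, 4.87 and 4.18) and NRIP1 (6.30, 6.06 and 6.15) and the coactivator PPARGC1A (6.96, 7.63 and 7.75), which drives gluconeogenic and mitochondrial genes. The coactivator NCOA6 stood at 2.96, 2.04 and 2.19. GPS2, a subunit of the NCOR complex, had a peak in NTG alone, CREBBP in NTG and siINO80#1, KDM1A in NTG and siINO80#2, EP300 in siINO80#2 alone and LCOR in both siINO80 lists only. Among further nuclear receptors, HNF4A, a master regulator of hepatocytes, had 3.71, 3.67 and 2.52. NR1H4 (FXR), the bile acid receptor, had a peak in NTG and siINO80#2, and NR0B1 had one in no list.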

How the data were processed

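ATAC-seq peak lists of HepG2 cells were used, 1 per group, and the titles of the samples gave the groups. For each peak the authors deposited its fold enrichment (a ratio of reads at the summit to the local background) and its p and q values as −log10; whether the 3 replicates were pooled before calling is not given in the sources used here. The submitters' processing notes name Trim Galore 0.4.1, Bowtie2, SAMtools, MACS2, deepTools 2.2.4 and hg19. The handling of the transposase offset is not given. No deposited interval ended beyond its GRCh37 chromosome (0 intervals).

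Where an interval held several summits, the one of highest fold enrichment stood for it. An overlap of 1 bp sufficed, and gene models were those of GENCODE lifted to GRCh37. Reads at the summit and background were solved from fold enrichment and −log10 p on the assumption of the formulas of MACS2, with an error of at most 0.000163 in −log10 p. Relative read numbers are the lowest background divided by the shortest peak of each list. Depth beyond this is unknown, and PCR copies are not independent molecules.

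Wilson intervals are at 95% and take peaks as independent, which neighbours are not. A peak in the window of 2 genes was counted for each gene and once in totals. Every receptor gene is named; single regions are the start-site regions not in all 3 lists and the 5 strongest others of all 3 lists, of NTG alone and of the siINO80 pair, plus those with an AP-1 match. The members and gene lists were chosen with earlier results of these data known. PECAM1 was not found as a protein-coding gene in the annotation. A few items are not reported here.

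Alternatives were a −log10 q of at least 5, the 53113 strongest peaks of each list, a start-site distance of 2.5 kb, starts of protein-coding transcripts, no flank or 50 kb, an overlap of 50%, merging within 500 bp, omission of ESR1 and a motif window of 400 bp. Chosen after seeing the data were the canonical start, any summit of an interval, omission of chromosomes with over 30 NTG peaks per Mb, the step of 20 percentile points and its alternatives, and the base composition and window limits. Recovery of reads (2000 simulated peaks), overlaps against bedtools (1500 intervals), region classes (1400) and peak kinds (300) were tested on simulated data, with 100% recovered. The tools were bedtools 2.31.1 and, in Python 3.11.15, pysam 0.24.0, pandas 2.3.3, numpy 2.4.6, matplotlib 3.10.9 and scipy 1.17.1.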

Additional observations from a re-analysis of the deposited data

Results flagged for a closer look

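The 2 siRNAs moved in opposite directions from NTG in 1 of 5 counts examined, the number of start-site peaks in the windows of the receptor genes. There were 51 in NTG, 3 more in siINO80#1 (a difference of 3) and 4 fewer in siINO80#2 (a difference of -4). Counted as merged regions, start-site regions with a peak numbered 51 in NTG, 49 in siINO80#1 and 39 in siINO80#2, so both siINO80 lists stood below NTG. Over all protein-coding genes the start-site peaks numbered 14301, 13964 and 11887. The opposite direction was thus seen only when each peak was counted by itself. Each count comes from 1 list, and the difference was not tested.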

How the results depend on the processing

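No paired analysis was possible because the replicates carry letters in the labels but the lists give no value per replicate, and leaving out a replicate was not run for the same reason. The numbers of genes with a start-site peak stayed within 1.5 times of those reported under each alternative run, the canonical start included. At equal list size they were 30 in NTG, 30 in siINO80#1 and 31 in siINO80#2, so that siINO80#2 no longer stood below NTG. With a −log10 q of at least 5, the windows held 113 peaks in NTG, 117 in siINO80#1 and 91 in siINO80#2, so that siINO80#1 stood above NTG. Of NTG peaks away from start sites, 69.6% were then matched in siINO80#1 and 58.2% in siINO80#2, and regions of all 3 lists made up 36.6%, of NTG alone 17.9% and of the siINO80 pair 8.04%. At equal list size, 87.5% of NTG start-site peaks and 55% of the others were matched in siINO80#2, and regions of NTG alone made up 21.7%. With an overlap of 50%, 66.7% of NTG start-site peaks and 45.5% of the others were matched in siINO80#1, and 54.9% and 34.2% in siINO80#2. A step of 10 percentile points gave 8 genes lower in siINO80#1, 10 lower in siINO80#2 and 5 higher in siINO80#2, and ranking by −log10 q gave 1 higher in siINO80#2. The number of lists with a start-site peak changed for 14 genes with the stricter q, 11 with the canonical start, 9 at equal list size, 2 with protein-coding transcripts (ESRRG and RXRG) and 1 with the wider distance (NR2E3). With the stricter q, NR2F6, NR5A1, PGR, RXRB, RXRG and VDR had a start-site peak in 0 lists and NR1I3 in 1. At equal list size NR2F6, RXRB, RXRG and VDR had one in 0 lists and NR5A1 in 1, whereas NR1I3 and PGR kept theirs in 2. The cause of these changes was not tested, other than that a stricter q and equal list sizes leave fewer peaks. Depth limits the weakest peaks, which rest on 12 to 15 reads.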
